A study of Mus musculus with 12 samples.

Results

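The cytochrome P450 enzymes of families 1 to 3 are the main drug- and steroid-oxidising enzymes of the liver, and 52 genes of these families were measured in livers of tumour-bearing mice kept in the cold, at room temperature or near thermoneutrality. Members were all protein-coding genes whose symbol begins with Cyp1, Cyp2 or Cyp3 followed by a letter and that had at least 10 counts summed over the 12 libraries. They were 52 of the 55421 genes in the table. The name rule matched 61 rows. Of the 9 left out, 4 had 0 counts in every library. The smallest member, Cyp2d12, had 10 counts and the largest row left out had 3. Members numbered 3 in family 1, 40 in family 2 and 9 in family 3, and 43 of them passed the low-count filter and were tested. The 9 not tested were Cyp1a1, Cyp2s1, Cyp2ab1, Cyp2c65, Cyp2c66, Cyp2d11, Cyp2d12, Cyp2j8 and Cyp3a57.

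Each library was total RNA of a liver depleted of ribosomal RNA. All mice were wild type (WT) and bore tumours grown in a mammary fat pad from E0771, a line of mouse mammary carcinoma cells, and no tumour-free group was analysed here. Libraries 1 to 4 came from mice housed at 6 °C, 5 to 8 from mice at 22 °C and 9 to 12 from mice at 29 °C, all at day 21, and mice were acclimatised for 1 week first. The labels name Balb/C or C57Bl6/J hosts but do not tie a strain to any library, and give no age. They do not say that each library was a separate animal, so that p-values measure the spread between libraries.

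P450 enzymes sit in the endoplasmic reticulum, hold a haem group and insert an oxygen atom into lipid-soluble molecules, with electrons passed on by P450 oxidoreductase and cytochrome b5. In the liver most of them are made by hepatocytes, many of them near the central vein, and their genes are driven by hepatocyte factors and by the receptors AHR, CAR and PXR, which sense foreign chemicals. The mouse has far more family 2 and 3 genes than humans, in clusters of close copies, and many of these differ between sexes and strains.

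Total counts ran from 7615585 to 19001126 per library, so that 3 counts, the limit that a count of 0 allows for counting error alone, correspond to between 0.15 and 0.398 CPM. Levels are given as CPM, the count scaled to the library's total after TMM scaling, which evens out libraries over the bulk of their genes. Hepatocyte markers, which define the labelled tissue, summed to 99400 to 215000 CPM. Libraries 1 (6 °C), 7 and 8 (22 °C) and 9 (29 °C) stood apart from the other 8. Relative to total counts they held 11.8 to 17.08 CPM of H2-Ea-ps, an MHC class II gene that the reference annotation lists as a pseudogene, and the other 8 held none. Their mitochondrial ribosomal RNA took 0.662 to 2.27% of counts, and that of the other 8 took 0.0668 to 0.342%. The labels do not name these 4 libraries as a group and do not say which host strain they came from. The results that rest on them are given with and without them. Where a split term is named, the fit had a covariate for these 4 libraries.

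The P450 genes together took between 0.677 and 1.55% of all counts. In the 6 °C libraries the share was 1.19, 1.00, 1.55 and 1.09%. In the 22 °C libraries it was 1.49, 1.46, 0.848 and 0.89%, and in the 29 °C libraries 0.677, 0.909, 0.907 and 0.993%. Every 29 °C library lay below every 6 °C library, with the nearest values at 0.993 and 1.00%, and the 22 °C libraries spread over both. Libraries 3, 5 and 6 had the highest shares, between 1.46 and 1.55%, and the same 3 libraries had the lowest share of Gm26917, a long non-coding RNA gene, 0.605 to 1.66%, where the remaining 9 had 4.03 to 8.7%. The part of this in the P450 levels was not tested. In bulk tissue, fewer cells of a type and less RNA per cell cannot be told apart.

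**Figure D1:**
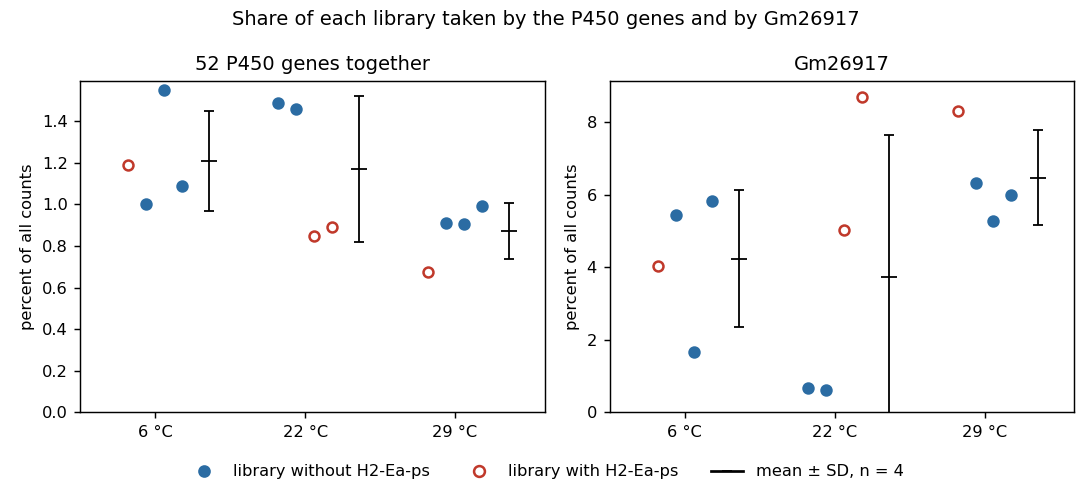
Share of all counts (percent) taken by the 52 P450 genes together (left) and by Gm26917 (right), by housing temperature. Each point is a library, open red points are the 4 libraries with H2-Ea-ps, and the black mark is the mean ± SD of 4 libraries. The P450 share was 0.677 to 0.993% at 29 °C and 1.00 to 1.55% at 6 °C, and the 3 libraries with the highest P450 share had the lowest Gm26917 share.

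Levels between genes were compared as CPM per kilobase of exon sequence, as the mean over the 12 libraries. Cyp2e1, which oxidises ethanol and paracetamol, was the highest at 1340 CPM per kilobase and alone gave 16.0 to 34.1% of the counts of all P450 genes. It was followed by Cyp2d26 at 380 and Cyp2c29, an arachidonic acid epoxygenase, at 326 CPM per kilobase. The range of Cyp2e1, 846 to 2360 CPM per kilobase over libraries, did not overlap that of Cyp2d26, 270 to 498, while Cyp2d26 and Cyp2c29 (126 to 538) overlapped. Next came Cyp2c70 (235), Cyp2b9 (221), Cyp2f2 (188), Cyp2j5 (178) and Cyp3a11 (169 CPM per kilobase), whose ranges all overlapped those of their neighbours. The order below Cyp2e1 depends on the length used, which joined the exons of all transcripts of a gene. This length was 3061 bases for Cyp2c29 and 5093 for Cyp3a11, while their longest protein-coding transcripts have 1783 and 2344 bases. For Cyp2d26 the lengths were 1792 and 1700 bases, so the places of these genes relative to each other are uncertain. In all, 14 genes lay above 100, 27 between 1 and 100, and 11 below 1 CPM per kilobase. The lowest included Cyp1a1 and Cyp1b1, which are known for expression on AHR activation and outside the liver, at 0.179 and 0.214.

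**Figure D2:**
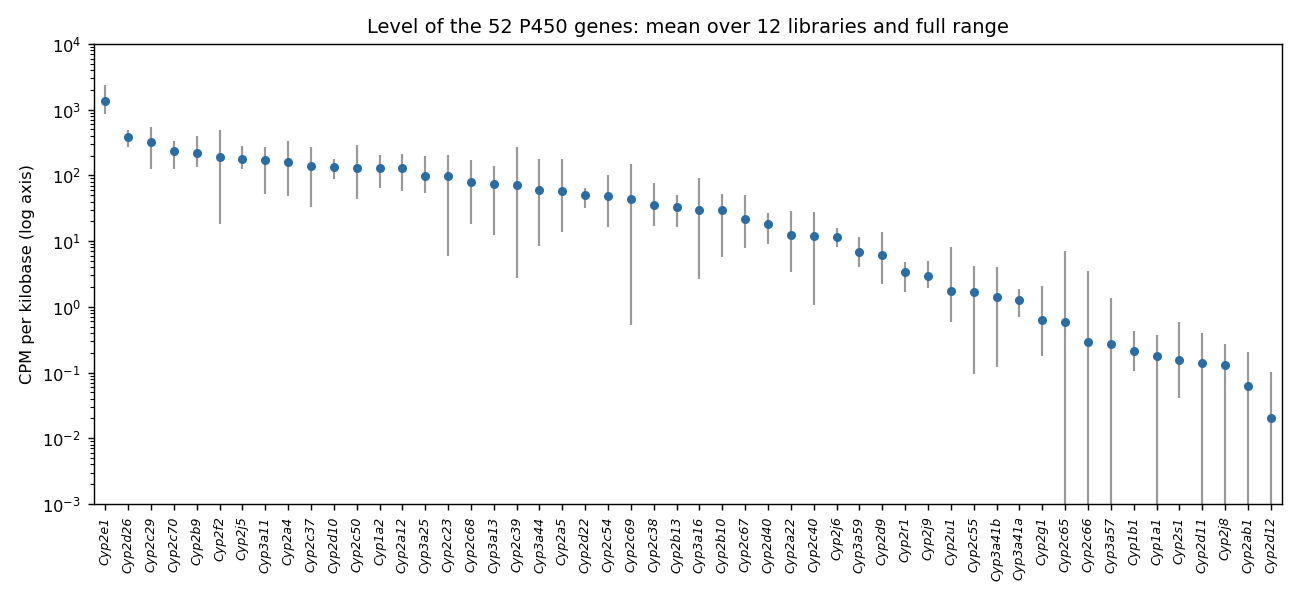
Mean level over 12 libraries (points) and full range over libraries (lines) of the 52 P450 genes in CPM per kilobase of exon, on a log axis that ends at 0.001, so that lines of genes with a library at 0 run to the bottom. Cyp2e1 at 1340 stands above Cyp2d26 at 380, and 11 genes lie below 1.

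The comparison over the widest range of temperature, 29 °C against 6 °C, asks which of these enzymes differ between warm and cold housing in mice that all carry a tumour. Cyp2a5, the coumarin hydroxylase of mouse liver, and Cyp2c70, the enzyme that makes muricholic bile acids in mice, were lower at 29 °C. These were 2 of the 43 tested genes (4.65%), while 2.53% of all 15006 genes tested were called and 1.39% were called lower (edgeR quasi-likelihood test, Benjamini-Hochberg adjusted p under 0.05). No P450 gene was called higher, with 1.13% of all genes called higher. DESeq2 called 7 P450 genes, all lower (8.07% of all genes called in either direction). Log2 fold changes were below 0 for 34 of the 43 genes (79.1%) against 49.9% of all genes tested, with a median of -0.49 against 0.00054 for all genes. At an unadjusted p under 0.05 there were 11 genes (25.6%, all genes 19.4%), all lower.

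Cyp2a5 stood at 350, 111.5, 365 and 122 CPM at 6 °C, at 94.7, 118, 44.1 and 55.2 CPM at 22 °C, and at 29.1, 46.5, 37.4 and 74.9 CPM at 29 °C. All 29 °C libraries lay below all 6 °C libraries, libraries 1 and 3 were about as high as each other and far above libraries 2 and 4, and the 22 °C libraries overlapped both groups. The log2 fold change was -2.34 ± 0.48 (SE) for 29 °C against 6 °C (adjusted p = 0.0347, edgeR), 1.61 ± 0.47 for 6 °C against 22 °C (adjusted p = 0.268) and -0.73 ± 0.47 for 29 °C against 22 °C (adjusted p = 0.4845). The call rested on a narrow margin. It held in 9 of 18 alternative fits, with adjusted p between 8.686e-06 and 0.112, and log2 fold changes of -1.91 to -2.65. It was lost without library 1, 3, 4, 9, 10 or 11, in the 8 libraries without H2-Ea-ps, without a low-count filter, and with the split term when library 11 was left out.

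Cyp2a4, a steroid hydroxylase that differs from Cyp2a5 in few residues, did not show the same difference between temperatures. Its levels were 580, 141, 386 and 326 CPM at 6 °C, 215, 329, 85.6 and 220 CPM at 22 °C, and 102, 346, 249 and 374 CPM at 29 °C, with all 3 groups overlapping (29 °C against 6 °C, log2 fold change -0.42 ± 0.50, adjusted p = 0.697, edgeR). Within each temperature both genes were lowest in the same library, which was library 2 at 6 °C, 7 at 22 °C and 9 at 29 °C. The ratio of Cyp2a5 to Cyp2a4 was 0.604, 0.791, 0.946 and 0.375 in the 6 °C libraries, 0.441, 0.359, 0.515 and 0.251 in the 22 °C libraries, and 0.286, 0.134, 0.15 and 0.2 in the 29 °C libraries. The ratio at 29 °C lay below every 6 °C value, and library 9 alone overlapped the 22 °C range. This ratio was looked at after the values of both genes were seen and was not tested. Of the 50-base windows of the Cyp2a5 transcript, 31.0% also occur in Cyp2a4, so reads from these windows cannot be assigned by sequence alone.

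The 250 bases before the RefSeq start of each gene are shown because the pair shares nearly all of them while their fold changes between temperatures differed. They are from RefSeq on GRCm38.p6, both on the plus strand, written 5′ to 3′. Capitals mark a GTTAAT (a core of HNF1 sites) and a TATAAA (the TATA box). The window of Cyp2a5 is chr7:26835089-26835338 and that of Cyp2a4 chr7:26306942-26307191. Their RefSeq starts lie 34 and 23 bases from the GENCODE starts.
Cyp2a5: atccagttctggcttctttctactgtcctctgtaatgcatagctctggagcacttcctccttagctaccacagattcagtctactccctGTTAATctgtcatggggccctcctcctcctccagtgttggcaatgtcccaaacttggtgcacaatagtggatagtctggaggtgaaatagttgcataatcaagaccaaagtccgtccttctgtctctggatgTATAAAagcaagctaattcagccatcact
Cyp2a4: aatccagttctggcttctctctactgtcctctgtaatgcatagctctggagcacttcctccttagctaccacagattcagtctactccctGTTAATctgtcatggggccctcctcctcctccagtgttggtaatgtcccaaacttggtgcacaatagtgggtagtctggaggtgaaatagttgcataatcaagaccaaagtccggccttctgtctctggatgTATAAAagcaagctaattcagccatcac

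Aligned, the windows of Cyp2a5 and Cyp2a4 were identical in 245 of 251 columns (97.6%). GTTAAT begins at -161 in Cyp2a5 and -160 in Cyp2a4 and TATAAA at -29 and -28, counted back from the RefSeq start with -1 as the base before it. On both strands, GTTAAT was found in 6 of the 46 member promoters in the table (13.0%) and in 6.43% of all 32851 promoters, and TATAAA in 25 of 46 (54.3%) and in 12.4%. These matches describe letters in a window and not sites bound by a factor.

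Cyp2c70 stood at 638, 507, 551 and 582 CPM at 6 °C, at 634, 652, 419 and 385 CPM at 22 °C, and at 246, 361, 314 and 290 CPM at 29 °C. It was the 1 tested P450 gene whose 29 °C libraries all lay below all libraries of both other groups. The log2 fold change was -0.91 ± 0.20 for 29 °C against 6 °C (adjusted p = 0.0352, edgeR) and -0.79 ± 0.20 for 29 °C against 22 °C (adjusted p = 0.163), and 0.12 ± 0.20 for 6 °C against 22 °C (adjusted p = 0.845). The call against 6 °C held in 10 of 18 alternatives, with adjusted p between 0.000601 and 0.0916. It was lost on leaving out any single library at 6 or 29 °C, with log2 fold changes of -0.82 to -1.005, and held in the 8 libraries without H2-Ea-ps (adjusted p = 0.00602). Against 22 °C the adjusted p was 0.0239 with the split term.

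The promoter window of Cyp2c70 is shown for its group of nuclear receptor motifs, at chr19:40187287-40187536 on the minus strand of GRCm38.p6 (RefSeq). Capitals mark AGGTCA (the core that nuclear receptors bind) at -74 and CAAAGTCCA (a sequence of HNF4A type) at -64. They also mark TTTATA at -29, which is TATAAA on the opposite strand and was not shown to act as a TATA box.
Cyp2c70: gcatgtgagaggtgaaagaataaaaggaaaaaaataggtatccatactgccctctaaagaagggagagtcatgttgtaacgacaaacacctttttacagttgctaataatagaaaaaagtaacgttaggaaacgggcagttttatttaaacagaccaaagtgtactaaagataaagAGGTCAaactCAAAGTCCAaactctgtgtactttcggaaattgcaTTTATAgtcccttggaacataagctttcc

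CAAAGTCCA, on either strand, was found in 10 of 46 member promoters (21.7%) and in 0.384% of all promoters. The 10 were Cyp2c40, Cyp2c65, Cyp2c67, Cyp2c68, Cyp2c69, Cyp2c70, Cyp3a11, Cyp3a16, Cyp3a41a and Cyp3a41b, several of which are close copies of each other. AGGTCA was found in 11 of 46 (23.9%) against 14.0% of all promoters, and GCGTG, the core of AHR sites, in 6 of 46 (13.0%) against 28.2%.

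**Figure D3:**
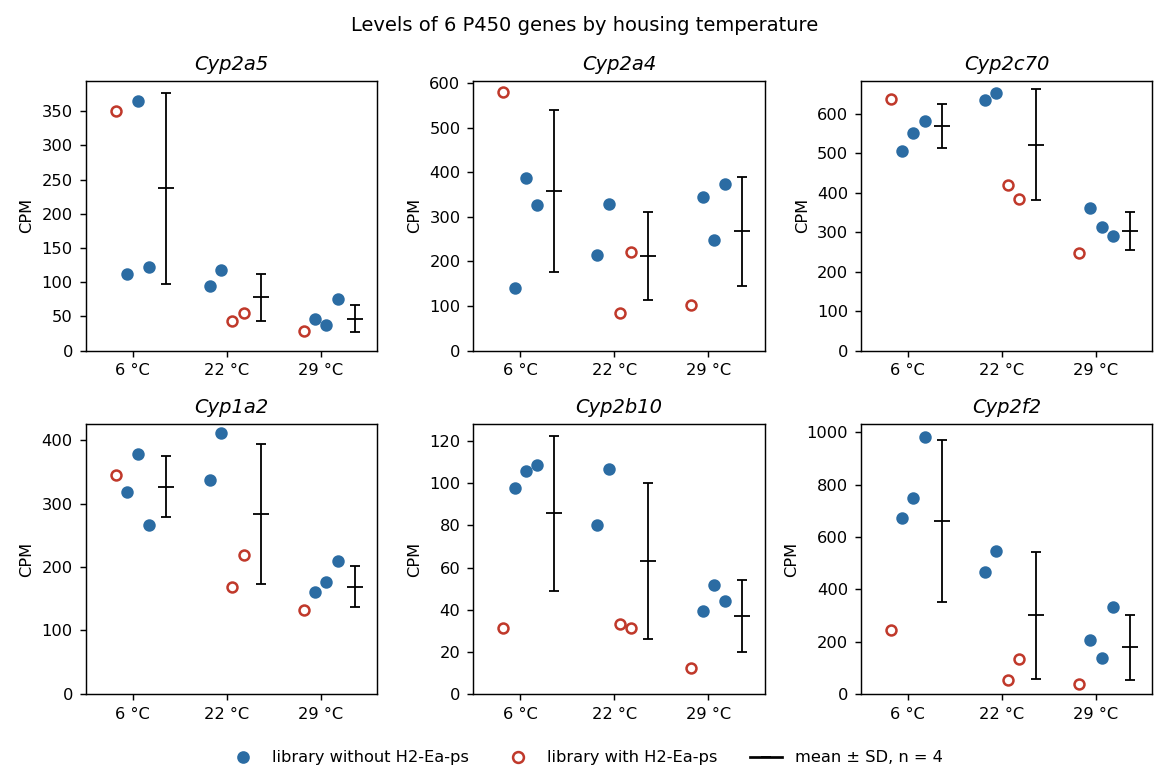
Levels (CPM) of Cyp2a5, Cyp2a4, Cyp2c70, Cyp1a2, Cyp2b10 and Cyp2f2 by housing temperature, with each library as a point, libraries with H2-Ea-ps open in red, and the mean ± SD of 4 libraries in black. Cyp2a5 and Cyp2c70 at 29 °C lie below all 6 °C libraries, and Cyp2b10 is lower at 29 °C within each set of libraries.

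Cyp1a2, which oxidises caffeine and arylamines and is an AHR target, stood at 345, 318, 379 and 265 CPM at 6 °C, at 338, 411, 169 and 219 CPM at 22 °C, and at 132, 160, 176 and 209 CPM at 29 °C. The 29 °C and 6 °C libraries did not overlap, and the 22 °C libraries with H2-Ea-ps lay among or near those at 29 °C. The log2 fold change of 29 °C against 6 °C was -0.95 ± 0.25 (adjusted p = 0.0626, edgeR), and with the split term -0.98 ± 0.19 (adjusted p = 0.0049). Cyp1b1 stayed at 0.61 to 2.5 CPM in all libraries. Cyp1a1, the gene most used as a sign of AHR activation, was at most 1.052 CPM in every library.

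Besides Cyp2a5, Cyp2c70 and Cyp1a2, the 6 °C and 29 °C libraries did not overlap for Cyp2j6, Cyp3a59 and Cyp2c29. This made 6 of 43 genes (14.0%), all lower at 29 °C, near the 13.3% found over all genes, although 6.78% of all genes lay lower in this way. For 29 °C against 22 °C the genes were Cyp2c70, Cyp2c38 and Cyp3a25, 3 of 43 (6.98%, all genes 7.68%, lower 3.81%), and for 6 °C against 22 °C there were 0 (all genes 6.34%, lower 2.81%).

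In 29 °C against 22 °C, which asks how housing near thermoneutrality differs from a standard room, no P450 gene was called by edgeR, as was the case for all 15006 genes (0.0%). Unadjusted p was under 0.05 for 8 P450 genes (18.6%), all lower, and for 2241 genes in all (14.9%), and DESeq2 called 2 P450 genes, Cyp2c38 and Cyp2c70, both lower (2.1% of all genes called). Log2 fold changes were below 0 for 32 of 43 genes (74.4%, all genes 50.4%), with a median of -0.55 (all genes -0.0037). Both comparisons with 29 °C share its 4 libraries, so their directions are not separate evidence. For 6 °C against 22 °C, edgeR called 0 P450 genes and 5 genes in all (0.0333%). Unadjusted p was under 0.05 for 3 P450 genes (6.98%, all genes 11.9%), higher at 6 °C for Cyp2a5 and Cyp2u1 and lower for Cyp2d9. DESeq2 called Cyp2a5 and Cyp2u1 higher at 6 °C (1.4% of all genes called). Fold changes were below 0 for 16 of 43 genes (37.2%, all genes 52.5%), with a median of 0.095.

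**Figure D4:**
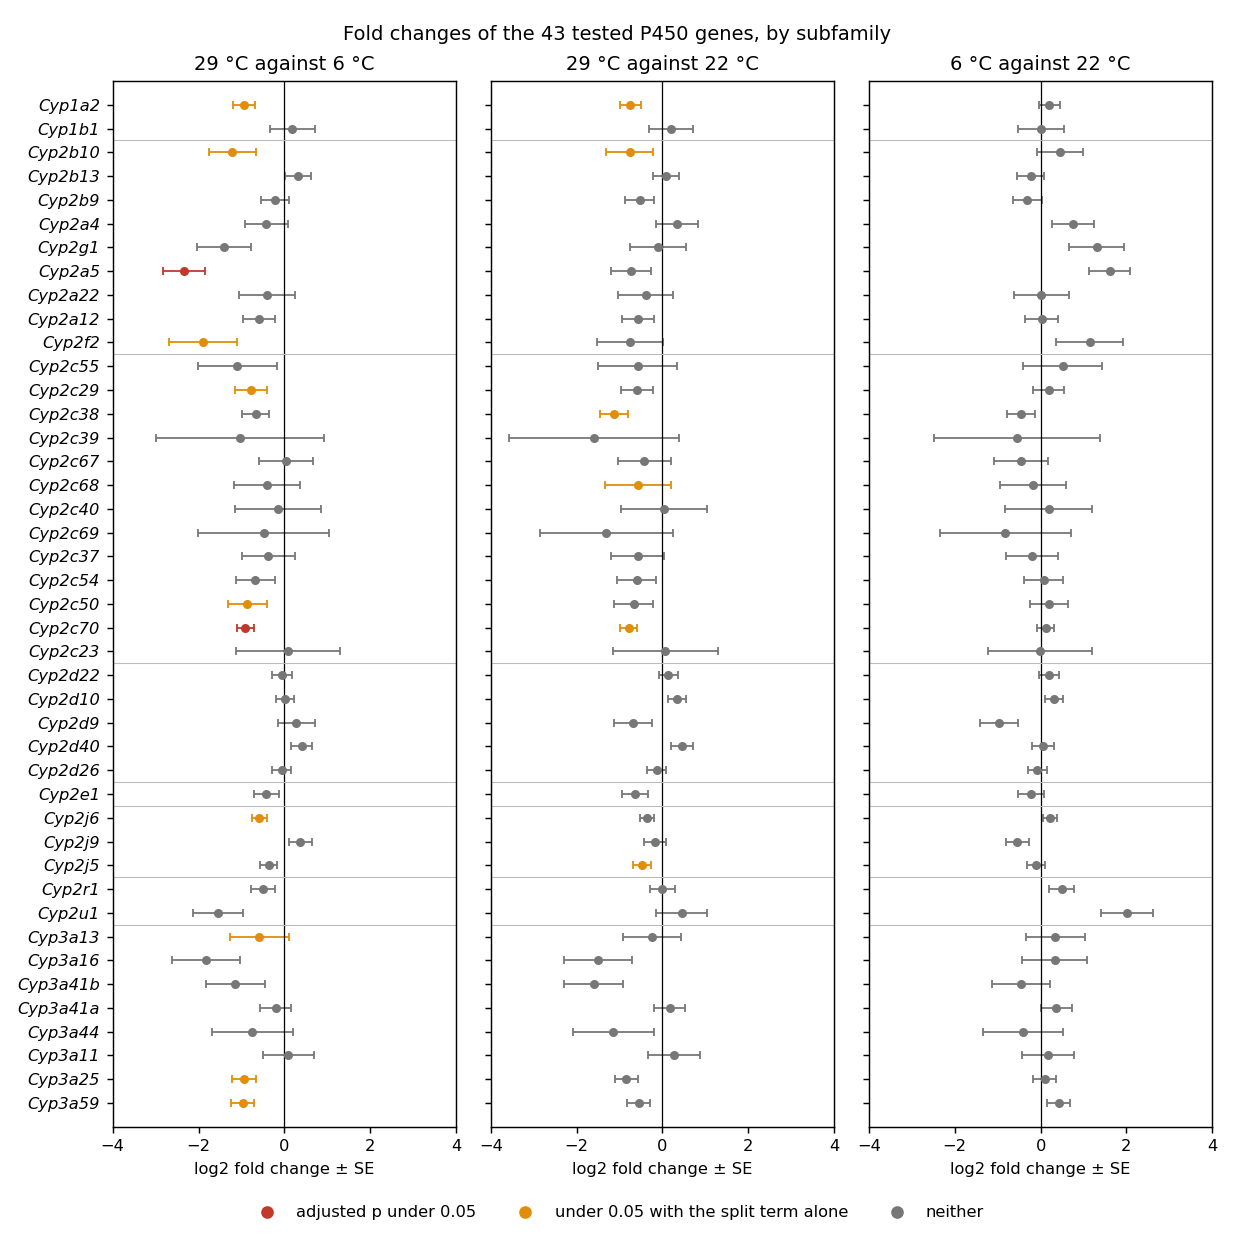
Log2 fold change ± SE of the 43 tested P450 genes in the 3 comparisons, grouped by subfamily and in chromosome order within each, from the fit without the split term. Red marks adjusted p under 0.05, orange marks genes under 0.05 only when the split term was added, and grey marks the rest. Points lie mostly left of 0 in both comparisons with 29 °C.

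With the split term, 11 of 43 genes (25.6%) were called for 29 °C against 6 °C, all lower, where 12.6% of all genes were called and 6.23% were called lower. They were Cyp1a2, Cyp2a5, Cyp2b10, Cyp2f2, Cyp2c29, Cyp2c50, Cyp2c70, Cyp2j6, Cyp3a13, Cyp3a25 and Cyp3a59. For 29 °C against 22 °C, 6 of 43 (14.0%) were called, all lower, where 3.44% of all genes were called and 1.88% were called lower. These were Cyp1a2, Cyp2b10, Cyp2c38, Cyp2c68, Cyp2c70 and Cyp2j5, and Cyp1a2, Cyp2b10 and Cyp2c70 stood in both lists. For 6 °C against 22 °C no P450 gene was called, with 0.367% of all genes called. In the 8 libraries without H2-Ea-ps (3, 2 and 3 libraries at 6, 22 and 29 °C), 7 of 45 genes were called for 29 °C against 6 °C (15.6%, all genes 9.91%, lower 4.98%) and 15 of 45 for 29 °C against 22 °C (33.3%, all genes 17.1%, lower 7.74%), all lower. In these 8 libraries, Cyp2c67, Cyp2c68 and Cyp2j9 were called lower at 6 °C than at 22 °C (6.67%, all genes 6.69%, lower 2.21%). The 22 °C side of this fit was libraries 5 and 6, which are among those with a high P450 share and a low Gm26917 share. Gm26917 took 0.667 and 0.605% of their counts and 5.27 to 6.34% in libraries 10, 11 and 12. The part of this in the calls was not tested. Library 11 carried intestinal transcripts. Leaving that library out, with the split term kept, 8 of 44 genes were called for 29 °C against 6 °C (18.2%, all genes 8.58%), 1 for 29 °C against 22 °C (Cyp2b10, 2.27%, all genes 0.657%) and 0 for 6 °C against 22 °C (all genes 0.237%). Of the 11 calls for 29 °C against 6 °C, those of Cyp2a5, Cyp2c50 and Cyp3a59 were lost both there and in the 8 libraries, and that of Cyp3a13 in the 8 libraries.

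Cyp2b10, the classical target of CAR, showed how the 4 libraries bear on these counts. Among the libraries without H2-Ea-ps its levels were 97.6, 106 and 109 CPM (6 °C), 80.2 and 107 CPM (22 °C), and 39.5, 51.8 and 44.2 CPM (29 °C). Those with H2-Ea-ps held 31.1 CPM (6 °C), 33.0 and 31.5 CPM (22 °C) and 12.2 CPM (29 °C). Within each set the 29 °C libraries were the lowest and the sets did not overlap. The log2 fold change of 29 °C against 6 °C was -1.21 ± 0.55 without the split term (adjusted p = 0.256, edgeR) and -1.23 ± 0.13 with it (adjusted p = 0.000176), and against 22 °C -1.17 ± 0.13 with it (adjusted p = 0.00378). Of the other Cyp2b genes, Cyp2b9 and Cyp2b13, both higher in female than male mouse liver, Cyp2b9 was called lower at 29 °C than at 22 °C in the 8 libraries alone (log2 fold change -0.93 ± 0.22, adjusted p = 0.0145), and Cyp2b13 was not called by edgeR in any comparison with or without the split term.

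Cyp2f2, known for naphthalene oxidation and in liver for its periportal expression, stood at 243, 671, 749 and 984 CPM at 6 °C, 466, 548, 53.0 and 134 CPM at 22 °C, and 36.3, 205, 137 and 333 CPM at 29 °C. The lowest value of each temperature came from a library with H2-Ea-ps. Its log2 fold change of 29 °C against 6 °C was -1.90 ± 0.80 (adjusted p = 0.225, edgeR) and -2.07 ± 0.33 with the split term (adjusted p = 0.00315). Cyp2g1, best known from olfactory mucosa, stood at 0.385 to 4.53 CPM and was not called.

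Many Cyp2c enzymes epoxidise or hydroxylate arachidonic acid. Of the 13 tested Cyp2c genes, 11 had a fold change below 0 for 29 °C against 6 °C (all genes 49.9%). For 29 °C against 22 °C there were also 11 (all genes 50.4%). Cyp2c29 stood at 1086, 1035, 1561 and 1186 CPM at 6 °C, 1514, 1646, 536 and 583 CPM at 22 °C, and 384, 806, 803 and 848 CPM at 29 °C. At 22 °C the 2 libraries without H2-Ea-ps lay with the highest 6 °C library, and those with it lay below 3 of the 4 libraries at 29 °C. The log2 fold change of 29 °C against 6 °C was -0.78 ± 0.37 (adjusted p = 0.272, edgeR) and -0.88 ± 0.21 with the split term (adjusted p = 0.0139). Cyp2c50 gave -0.87 ± 0.45 and, with the split term, -0.945 ± 0.27 (adjusted p = 0.0399). This was the 1 of 18 alternatives that called it, the adjusted p was 0.222 in the 8 libraries without H2-Ea-ps, and without library 3 the value was -0.44 (no split term). Cyp2c38, for 29 °C against 22 °C, gave -1.13 ± 0.32 (adjusted p = 0.187, edgeR) and -1.225 ± 0.24 with the split term (adjusted p = 0.0292), and its 61.05 to 76.05 CPM in the 29 °C libraries without H2-Ea-ps compared with 165 and 218 CPM at 22 °C.

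The widest differences of the family lay not between temperatures but between the 4 libraries with H2-Ea-ps and the other 8. Of the 43 tested genes, 14 (32.6%) had ranges that did not overlap between these sets, against 9.38% of all genes tested. In 11 genes the 4 libraries lay below the other 8 (25.6%, all genes 4.77%) and in 3 above (6.98%, all genes 4.61%). The lower ones were Cyp2b10, Cyp2c23, Cyp2c40, Cyp2c55, Cyp2c67, Cyp2c68, Cyp2c69, Cyp2d10, Cyp2d22, Cyp3a11 and Cyp3a13, and the higher ones Cyp2c39, Cyp2d9 and Cyp3a44. No test was run on this division, which came from the data.

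Cyp2c23, an arachidonic acid epoxygenase of liver and kidney, stood at 15.8 CPM in library 1 and at 207, 271 and 341 CPM in the other 6 °C libraries. At 22 °C its levels were 437 and 373 CPM in libraries 5 and 6 but 12.9 and 21.9 CPM in libraries 7 and 8. Library 9 (29 °C) held 16.4 CPM, and the other 29 °C libraries 298, 228 and 342 CPM. The ratio of the medians, the 4 libraries to the other 8, was 0.0504. Its fold changes between temperatures had SEs of 1.22 on the log2 scale without the split term. With the split term they were 0.08 ± 0.19 for 29 °C against 6 °C (adjusted p = 0.845, edgeR) and -0.33 ± 0.20 for 29 °C against 22 °C (adjusted p = 0.313).

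Cyp2c69, one of the P450 genes higher in female mouse liver, went furthest in the same direction, at 3.16, 0.893, 4.03 and 1.39 CPM in libraries 1, 7, 8 and 9 and at 39.9 to 257 CPM in the other 8 (ratio of medians 0.0287). Among these 8, its levels were 60.0, 75.1 and 123 CPM (6 °C), 200.2 and 257 CPM (22 °C), and 83.3, 39.9 and 61.3 CPM (29 °C). The 22 °C libraries were the highest there, and the log2 fold change of 29 °C against 22 °C within the 8 was -1.90 ± 0.38 (adjusted p = 0.0173, edgeR). With the split term over all 12 libraries it was -1.60 ± 0.46 (adjusted p = 0.0783). Its neighbour Cyp2c68 stood at 30.9 to 46.0 CPM in the 4 libraries and 116 to 299 CPM in the other 8. With the split term it was called lower at 29 °C than at 22 °C (log2 fold change -0.79 ± 0.20, adjusted p = 0.046).

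Cyp2c39, a retinoic acid hydroxylase, ran the opposite way, at 497, 399.5, 346 and 237 CPM in libraries 1, 7, 8 and 9 and at 5.06 to 11.8 CPM in the other 8, a ratio of medians of 65.2. Next to it on the chromosome, Cyp2c38 stood at 48.4 to 92.4 CPM in the 4 libraries and 61.05 to 218 CPM in the other 8, and these ranges overlapped. The ratio of Cyp2c39 to Cyp2c38 was 3.74 to 5.48 in the 4 libraries and 0.0357 to 0.094 in the other 8. Of the Cyp2c39 transcript, 11.4% of 50-base windows occur in another gene.

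**Figure D5:**
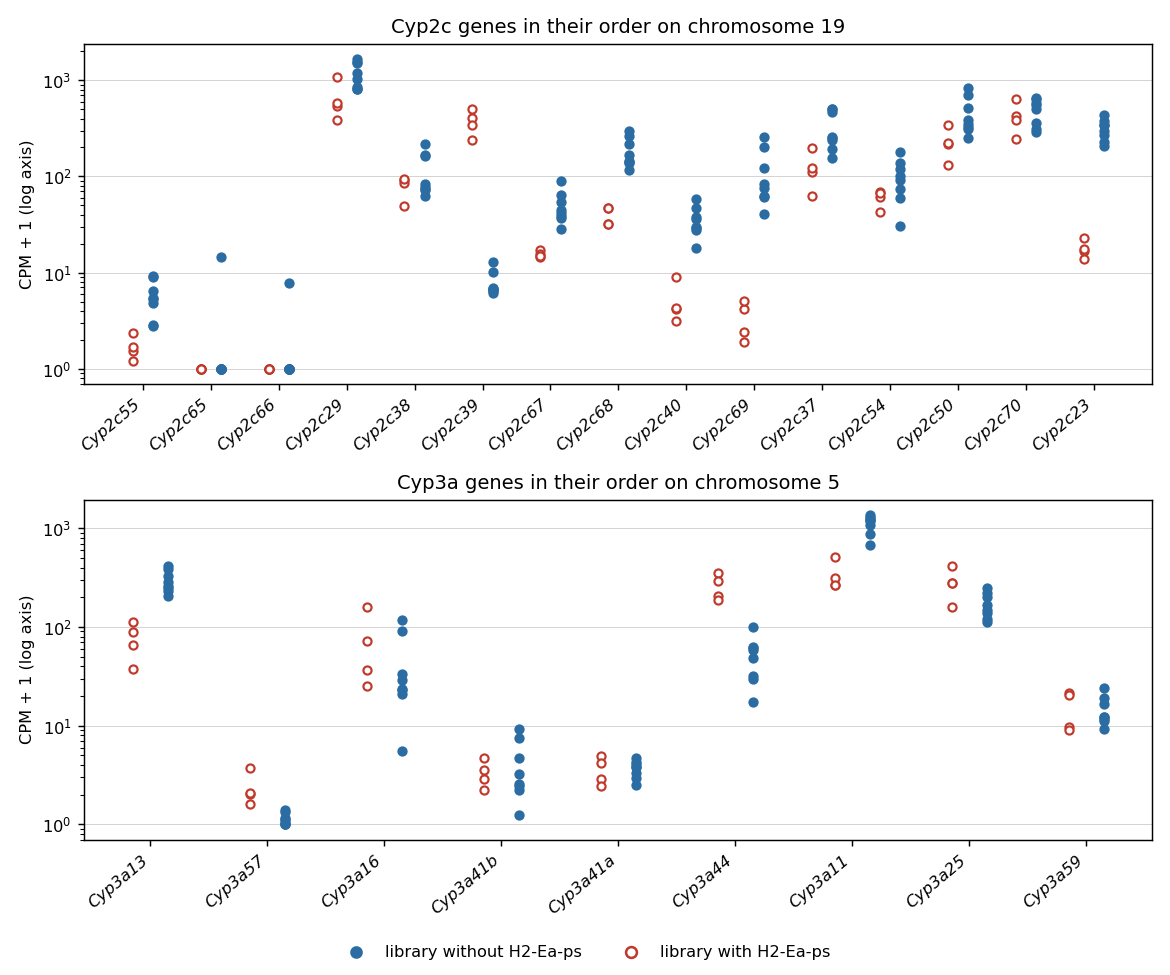
Level of each Cyp2c gene (upper) and Cyp3a gene (lower) in their order along the chromosome, as CPM + 1 on a log axis. Open red points are the 4 libraries with H2-Ea-ps and filled points the other 8. Cyp2c39 and Cyp3a44 are higher in the 4 libraries, Cyp2c67, Cyp2c68, Cyp2c40, Cyp2c69, Cyp2c23, Cyp3a13 and Cyp3a11 lower, and Cyp2c65 and Cyp2c66 are above 0 in a single library.

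Promoter windows of these neighbours are shown because Cyp2c69 and Cyp2c68 kept together across libraries and Cyp2c39 opposed them. All are on GRCm38.p6 (RefSeq), with Cyp2c69 at chr19:39886770-39887019 and Cyp2c68 at chr19:39741102-39741351 on the minus strand and Cyp2c39 at chr19:39510572-39510821 on the plus strand. Capitals mark the motif of HNF1 type (from the opposite strand), the AHR core (Cyp2c68 alone, also from the opposite strand) and the motif of HNF4A type.
Cyp2c69: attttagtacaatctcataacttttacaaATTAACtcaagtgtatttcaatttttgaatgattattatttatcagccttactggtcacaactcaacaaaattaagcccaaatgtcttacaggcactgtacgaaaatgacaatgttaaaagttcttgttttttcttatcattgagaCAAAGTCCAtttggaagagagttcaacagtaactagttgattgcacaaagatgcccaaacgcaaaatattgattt
Cyp2c68: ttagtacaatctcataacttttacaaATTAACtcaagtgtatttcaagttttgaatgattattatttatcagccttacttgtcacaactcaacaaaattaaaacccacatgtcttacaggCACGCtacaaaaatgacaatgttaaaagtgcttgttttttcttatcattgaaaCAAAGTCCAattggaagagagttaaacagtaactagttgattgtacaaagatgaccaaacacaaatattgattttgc
Cyp2c39: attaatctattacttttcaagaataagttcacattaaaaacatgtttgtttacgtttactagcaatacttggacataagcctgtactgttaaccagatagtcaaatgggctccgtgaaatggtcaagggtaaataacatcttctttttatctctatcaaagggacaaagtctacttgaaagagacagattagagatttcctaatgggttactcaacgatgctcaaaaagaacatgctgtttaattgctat

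The windows of Cyp2c69 and Cyp2c68 were 91.3% identical and those of Cyp2c39 and Cyp2c69 58.8%. CAAAGTCCA begins at -75 in Cyp2c69 and -77 in Cyp2c68, and none of the 5 motifs searched was in the Cyp2c39 window as an exact match. Near matches were not searched for, and this window holds caaagtcta and gttaac, which are close to CAAAGTCCA and GTTAAT. All windows are reference sequences, and the sequence in the animals sampled was not analysed here.

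Over the 12 libraries, and among the 38 genes with a mean of at least 5 CPM, the pattern most like that of Cyp2c23 was that of Cyp2c69 (Pearson r of log2(CPM + 1) 0.978), then Cyp2c40 (0.96) and Cyp2c68 (0.954), while Cyp2c39 was the least alike (-0.976). For Cyp2c69 they were Cyp2c68 (0.981), Cyp2c23 (0.978) and Cyp2c40 (0.96). Cyp2a5 was most like Cyp1a2 (0.857), Cyp2j6 (0.848) and Cyp2c70 (0.766), and Cyp2c70 most like Cyp1a2 (0.887), Cyp2j6 (0.819) and Cyp2c29 (0.815). All values share the same 12 libraries and their scaling, and Cyp2c23, Cyp2c39, Cyp2c40, Cyp2c68 and Cyp2c69 follow the division into 4 and 8 libraries.

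Reads of the close copies may be shared between them. At least 50% of the 50-base windows of the transcript occur in another gene for 5 of the 52 genes, which are Cyp3a41a (98.6%), Cyp3a41b (93.5%), Cyp2c40 (72.1%), Cyp2c69 (54.8%) and Cyp2c67 (52.8%). For Cyp2c68 the share was 43.3%. Their levels are uncertain to that extent, and how reads that match several genes were counted is not given in the sources used here.

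Cyp2c65 and Cyp2c66, which are expressed in the intestine, were at 0 counts in 11 libraries and at 272 and 134 counts in library 11 (29 °C), or 13.6 and 6.71 CPM. In the same library the summed level of 20 intestinal markers was 937 CPM against 56.2 to 89.1 CPM in the others. Neither gene was tested.

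The Cyp2d genes, which include Cyp2d22, a mouse relative of human CYP2D6, were not called in any comparison by edgeR with or without the split term. Of 5 tested, 2 had a fold change below 0 for 29 °C against 6 °C, with a median of 0.0083 on the log2 scale and values from -0.07 (Cyp2d26) to 0.40 (Cyp2d40). Cyp2d9 gave the lowest values against 22 °C, at -0.69 ± 0.44 for 29 °C (adjusted p = 0.478, edgeR) and -0.97 ± 0.44 for 6 °C (adjusted p = 0.418). Cyp2d26, the highest of them, stood at 556 to 810 CPM at 6 °C, 549 to 893 CPM at 22 °C and 484 to 809 CPM at 29 °C, and the log2 fold change of 29 °C against 6 °C was -0.07 ± 0.22. Cyp2d9, a steroid hydroxylase known as higher in males, stood at 21.2 to 36.7 CPM in the libraries with H2-Ea-ps and 5.97 to 15.1 CPM in the others, and Cyp2d10 at 143 to 192 and 197 to 294 CPM. Cyp2e1 gave -0.64 ± 0.30 for 29 °C against 22 °C (adjusted p = 0.331, edgeR) and -0.42 ± 0.30 for 29 °C against 6 °C (adjusted p = 0.469).

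Among the Cyp2j genes, Cyp2j6 stood at 48.5, 49.0, 57.8 and 45.2 CPM at 6 °C, 56.8, 43.9, 33.2 and 37.9 CPM at 22 °C, and 29.0, 31.7, 34.6 and 38.7 CPM at 29 °C. The 6 °C and 29 °C libraries did not overlap, at a log2 fold change of -0.58 ± 0.17 (adjusted p = 0.0763, edgeR) and -0.59 ± 0.14 with the split term (adjusted p = 0.0115). Cyp2j5, an arachidonic acid epoxygenase, was called lower at 29 °C than at 22 °C with the split term (-0.56 ± 0.14, adjusted p = 0.0401). Cyp2j9 gave -0.54 ± 0.27 for 6 °C against 22 °C (adjusted p = 0.442). Cyp2r1, the vitamin D hydroxylase of the liver, stood at 3.54 to 10.35 CPM and was not called. Cyp2u1, a fatty acid hydroxylase, stood at 42.9 CPM in library 4 and 16.9 CPM in library 2, both at 6 °C, and at 3.06 to 7.01 CPM in the other 10. Its log2 fold change of 6 °C against 22 °C was 2.01 ± 0.60 (adjusted p = 0.272, edgeR), and 1.045 without library 4. That of 29 °C against 6 °C was -1.55 ± 0.59 (adjusted p = 0.169) and -0.60 without library 4.

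Members of family 3 carry out much of the oxidation of drugs and steroids. Here 7 of 8 tested genes had a fold change below 0 for 29 °C against 6 °C (all genes 49.9%). The exception was Cyp3a11, the main PXR target of mouse liver and the highest of the family, at 0.10 ± 0.60 (adjusted p = 0.953, edgeR). Libraries 1, 7, 8 and 9 held 263, 516, 311 and 267 CPM of it, and the other 8 held 669 to 1360 CPM, so that the sets of libraries and not the temperatures separated. Cyp3a25 stood at 411, 149, 200 and 247 CPM at 6 °C, 168, 219, 279 and 277 CPM at 22 °C, and 157, 112, 119 and 137 CPM at 29 °C. All of its 29 °C libraries lay below all at 22 °C, and with the split term its log2 fold change against 6 °C was -0.87 ± 0.17 (adjusted p = 0.0049). Cyp3a59 gave -0.97 ± 0.26 in the same fit (adjusted p = 0.02685) and Cyp3a13, found in liver and intestine, -0.78 ± 0.20 (adjusted p = 0.0216). Without the split term their adjusted p was 0.0815, 0.0704 and 0.695. Cyp3a44, higher in female mouse liver, stood at 185 to 352 CPM in the libraries with H2-Ea-ps and 16.5 to 99.99 CPM in the others, and Cyp3a41b gave -1.60 ± 0.69 for 29 °C against 22 °C (adjusted p = 0.309), with almost all of its sequence shared with Cyp3a41a.

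Genes that serve the P450 enzymes or share their control were described from lists. Of 13 electron donors and enzymes of haem synthesis, none was called for 29 °C against 6 °C without the split term. Their median log2 fold change was -0.36, with 11 of 13 below 0 (all genes 49.9%). With the split term 3 were lower and 1 higher, where 12.6% of all genes were called and 6.23% were called lower. The lower ones were Pgrmc1 (-0.58 ± 0.12, adjusted p = 0.00596, edgeR), a haem-binding partner of P450 enzymes, Cyb5b (-0.60 ± 0.13, adjusted p = 0.00893), a cytochrome b5, and Fech (-0.48 ± 0.14, adjusted p = 0.0337), which puts iron into haem. Cpox of the same pathway was higher (0.70 ± 0.19, adjusted p = 0.0302). Of 4 genes of haem breakdown and 18 transcription factors and sensors of P450 genes, among them AHR, CAR and PXR, 0 were called for 29 °C against 6 °C with or without the split term (medians 0.084 and -0.097 without it). With the split term, Cebpa was higher at 29 °C than at 22 °C (1.015 ± 0.24, adjusted p = 0.0403). It was the 1 gene of these 18 called there, where 3.44% of all genes were called.

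Of 13 tested AHR, CAR and PXR targets outside the P450 genes, 0 were called without the split term (median -0.45, 29 °C against 6 °C). With it, 2 were lower, where 12.6% of all genes were called and 6.23% were called lower. These were Sult2a1, a steroid sulfotransferase (-2.49 ± 0.64, adjusted p = 0.0379, edgeR), and Aldh1a7 (-0.63 ± 0.13, adjusted p = 0.00555). Of 21 tested P450 genes of other families, 1 was called for 29 °C against 6 °C (all genes 2.53%), the oxysterol hydroxylase Cyp7b1 (-0.87 ± 0.20, adjusted p = 0.0436). The split term gave 7 lower and 1 higher (all genes called 12.6%, lower 6.23%). Among the lower ones were Cyp17a1, a steroid hydroxylase, at -2.11 ± 0.29 (adjusted p = 0.00157) and Cyp27a1, which oxidises sterol side chains, at -0.87 ± 0.14 (adjusted p = 0.00233). For 6 °C against 22 °C, Cyp17a1 (1.53 ± 0.28, adjusted p = 0.0472) and Cyp8b1, a hydroxylase of bile acid synthesis (0.75 ± 0.14, adjusted p = 0.0325), were higher at 6 °C with the split term. Of all genes, 0.367% were called in that comparison.

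Markers of the zones of the liver lobule were set beside the P450 genes, since many of these are zonated. For 29 °C against 6 °C the median log2 fold change of 12 pericentral markers outside P450 families 1 to 3 was -0.79. Cyp27a1, a P450 gene of another family, is among these 12. In this list 1 was called lower (Oat, -1.02 ± 0.25, adjusted p = 0.0461, edgeR). The median of 12 periportal markers was -0.80, with 0 called. With the split term 5 of 12 were lower in each list (all genes 6.23%), with Cyp27a1 among the 5 pericentral ones. Of 8 pericentral P450 genes, all of them among the 43, 1 was called (Cyp2a5, all genes 2.53%), with a median of -0.72. With the split term 4 were called (all genes 12.6%). Hepatocyte markers had a median of 0.074, with 0 of 11 called. For 10 Kupffer cell markers the median was 0.62, with 0 of 10 fold changes below 0 (all genes 49.9%), and 0 were called. Their summed levels were 513 to 944, 411 to 1110 and 609 to 1350 CPM at 6, 22 and 29 °C. The medians of 10 endothelial and stellate markers and of 5 tested cholangiocyte markers were 0.15 and 0.22, with 0 called without the split term. With it, Stab2 of the endothelial and stellate list was higher (0.43 ± 0.12, adjusted p = 0.0327, edgeR). For 29 °C against 22 °C with the split term (all genes called 3.44%), C1qc of the Kupffer list was higher (0.90 ± 0.22, adjusted p = 0.0409, edgeR). In that fit Apoa2 of the hepatocyte list was lower (-0.70 ± 0.16, adjusted p = 0.0360). Of 20 intestinal markers, 3 were tested, and 0 were called. Of 9 P450 genes known to be higher in female mouse liver, 8 had a fold change below 0 (all genes 49.9%). Of these 9, 0 were called with or without the split term, and 0 of 2 known as higher in males were called. The part of these cell types in the P450 levels was not tested.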

How the data were processed

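The authors deposited raw counts per gene, as whole numbers, for 12 liver libraries in 1 table of 55421 genes. Tools named in the submitters' processing notes, without their roles, are STAR 2.6.1a, bcl2fastq and DESeq2 1.44.0, and the build named there is GRCm38. Which program counted reads, and whether by strand, is not given in the sources used here. Gene positions came from GENCODE vM21 on GRCm38 by identifier (for Cyp2c40 without its version), and promoter windows from a RefSeq table on GRCm38.p6.

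The deposited counts went unchanged into edgeR 4.0.16 (R 4.3.3). Genes were filtered with filterByExpr by group, scaled by TMM and tested two-sided with the robust quasi-likelihood fit, which had 3 group means, no covariate and 9 residual degrees of freedom. Adjusted p is Benjamini-Hochberg over all 15006 genes tested, with a threshold of 0.05 and no minimum fold. The common biological coefficient of variation was 0.321. SE is the absolute log2 fold change divided by the square root of F. CPM use TMM-scaled library sizes. The fit without the split term was also run on simulated counts. These had the common dispersion for every gene and no division of libraries by H2-Ea-ps, so they do not test the split term or genes that follow that division.

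The members, the gene lists and the split term, a covariate that marks the 4 libraries with H2-Ea-ps at 1 CPM or more (8 residual degrees of freedom), were chosen with earlier results of these data known. Named genes were Cyp2a5, Cyp2c23, Cyp2c69 and Cyp2c70, all members called with or without the split term, the 8 lowest p per comparison, and the highest level per kilobase in each subfamily. Of the called genes of the lists, only some were named. Others, such as Cyp2a4, Cyp2c39 and Cyp3a44, were named after their values were seen. Alternatives were DESeq2 size factors, DESeq2 1.42.0, no low-count filter, the split term, the 8 libraries without H2-Ea-ps, and leaving out each library. The split term without library 11 was added after seeing the data.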

Additional observations from a re-analysis of the deposited data

Results flagged for a closer look

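In each temperature group of 4 libraries, the levels of the 27 named genes were searched for a library far from the other 3 (81 groups), and 5 were found. With a limit set at the 95% level, chance alone gives about this many. Cyp2b10 in library 1 (6 °C) was the lowest at 31.13 CPM, with the others at 97.6 to 109 CPM. Cyp2d10 in the same library was the lowest at 179.6 CPM, with the others at 251 to 264 CPM. Cyp2c29 in library 9 (29 °C) was the lowest at 384.4 CPM, with the others at 803 to 848 CPM. Libraries 1 and 9 both carry H2-Ea-ps. Cyp2c50 in library 3 (6 °C) was the highest at 839.5 CPM, with the others at 329 to 387 CPM. Cyp2e1 in library 12 (29 °C) was the highest at 2819 CPM, with the others at 2019 to 2042 CPM.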

How the results depend on the processing

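The number of P450 genes called for 29 °C against 6 °C was 2. It was 7 with DESeq2, 11 with the split term, 7 in the 8 libraries without H2-Ea-ps, 8 with the split term without library 11, and 0 to 3 when each library was left out in turn. For 29 °C against 22 °C it was 0, and 2, 6, 15 and 1 under the same alternatives. For 6 °C against 22 °C it was 0, and 2 with DESeq2 and 3 in the 8 libraries without H2-Ea-ps. The shares of all genes called rose as well. For 29 °C against 6 °C the share was 2.53%, and 8.07, 12.6, 9.91 and 8.58% under these alternatives in the order given. For 29 °C against 22 °C it was 0.0%, and 2.1, 3.44, 17.1 and 0.657%. For 6 °C against 22 °C it was 0.0333%, and 1.4 and 6.69%. Such shares were not taken when each library was left out. DESeq2 size factors and no low-count filter left all 3 counts of P450 genes within 1.5 times. Of 41 fold changes of 28 genes recomputed under each alternative, 646 values kept direction and side of the threshold, 55 gained a call and 17 lost one, which were those of Cyp2a5 and Cyp2c70 for 29 °C against 6 °C. The sign changed for 19 values, all of uncalled fold changes. For 29 °C against 6 °C, Cyp2a4 was 0.19 in the 8 libraries, Cyp2d26 was 0.019 with the split term without library 11, and leaving out each library gave -0.19 to 0.051 for Cyp2d26, -0.30 to 0.47 for Cyp2c23 and -0.21 to 0.40 for Cyp3a11. Against 22 °C, the 29 °C value of Cyp2c23 was -0.33 with the split term, -0.23 with it without library 11, -0.49 in the 8 libraries and -0.32 to 0.71 when each library was left out. The 6 °C against 22 °C value of Cyp2c70 was -0.24 in the 8 libraries. No paired analysis was possible because library numbers 1 to 12 occur once each. With 4 libraries per group, fold changes of Cyp2c23, Cyp2c39, Cyp2c40 and Cyp2c69 had SEs over 1 on the log2 scale without the split term, so a difference of that size between temperatures was within the error for them.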
